A study of Quercus suber with 11 samples.

Results

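The genes described here are the cork oak homologs of cytosolic small ribosomal subunit (40S) proteins, taken as every locus whose closest Arabidopsis protein belongs to a list of 60 Arabidopsis genes of 22 families, RPSa and RPS2 to RPS20. The list matched 84 of the 32024 loci, through 34 of its 60 genes, and all 22 families were found. Of these, 62 loci had a mean level of at least 10 on the linear scale and were tested, out of 22426 loci in all that passed this minimum. The 22 members below it had mean log2 levels between -1.94 and 1.37 and are not described further.

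Innercork, the living cork tissue that comes off with the plank, was profiled by RNA sequencing in 11 trees, 4 of them harvested in April, 3 in June and 4 in July. All trees were untreated cork oaks (Quercus suber) growing in a forest, the cork was virgin cork, and each tree was sampled once, so that the months are compared between different trees. The samples may mix phellem (cork cells) with phellogen, the meristem that forms cork, and the share of each cell type in a library is not known. Levels are regularized log2 values (rlog), normalized for library size but not for transcript length, so a locus is compared between months and not with other loci.

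The 40S subunit binds the messenger RNA, and its proteins hold the ribosomal RNA in shape around the decoding site. The head, the body and the platform are its main parts, with the messenger RNA entering between head and body. Plant genomes keep several expressed copies of most of these genes, growing and dividing tissues use them heavily, and losses of single copies in Arabidopsis, such as of RPS13A or RPS18A, are known for slowed cell division and narrow, pointed leaves.

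The labelled tissue was checked by markers. The 6 tested loci of suberin synthesis genes had a summed linear level of 612348 to 1210440 in April, 1177940 to 1403280 in June and 767141 to 966416 in July. Sums here and below are not scaled to the summed level of all tested loci. That was 30965500 in April replicate 1 and 43392500 in June replicate 1. As a share of all loci, suberin made up 1.98% to 2.97% in April, 3.02% to 3.45% in June and 2.07% to 2.61% in July. The 6 loci of meristem regulators (homologs of AINTEGUMENTA, WOX4, SHOOT MERISTEMLESS and KNAT1/BREVIPEDICELLUS) summed to 19497 to 27314 in April, 9891 to 11114 in June and 9133 to 17706 in July. All 3 loci of light-harvesting proteins lay below the minimum, and the 5 tested loci of xylem cellulose synthases summed to 774 to 2533 in April, 2624 to 5236 in June and 2550 to 19123 in July. Depth per library cannot be read from the values. April replicate 2 stood apart from the other April trees in the 40S genes, but not in them alone. Its summed linear level over all tested loci was 40744000, against 30965500 to 32713200 in the other April trees. Its median deviation over all tested loci was -0.0075. The 40S share of the summed level of all loci was 0.752% in this tree and 0.654% to 0.726% in the other April trees. Results are also given without April replicate 2 and July replicate 4. These 2 libraries had the lowest weights in limma's array quality weighting (0.260 and 0.397).

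As a group, the 40S genes were lower in June than in April and July. The median of the 62 loci, expressed as the deviation of each tree from the mean of all 11 trees, was 0.062, 0.46, 0.066 and 0.0039 log2 units in the April trees. It was -0.42, -0.32 and -0.12 in the June trees, and 0.13, 0.050, 0.048 and 0.20 in the July trees. The 3 June trees thus lay below all 8 others, and April and July overlapped. On the linear scale the summed level of the 62 loci was 214252 to 306629 in April, 176026 to 206722 in June and 231963 to 256652 in July, again with June below both. Fewer cells of a type with many ribosomes and less of this RNA per cell cannot be told apart in such samples. Of the 6 meristem regulator loci 4 were lower in June than in April at an adjusted p of at most 0.05 in limma, with the lowest sums in June and in July replicate 4. Of the 6 suberin loci 1 was higher, and their sums were high in June and in April replicate 2. The part of either cell type in the 40S result was not tested.

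Between June and April the median log2 difference (June minus April) of the 62 loci was -0.44, a level in June of 0.735 times that in April, and 54 loci had a negative difference. Over all 22426 loci the median was -0.02. With limma's moderated test, 16 of the 62 loci were lower and 1 was higher in June at a p of at most 0.05 after Benjamini-Hochberg adjustment, against 4.23% lower and 5.57% higher of all loci. The 3 June trees lay below all 4 April trees at 31 of the 62 loci and above them at 1, and over all loci these shares were 13.0% and 13.9%. A stricter rule took the thresholds of the study (adjusted p at most 0.01 and an absolute log2 difference above 1). The study applied them to DESeq2 tests of counts, and here they were applied to limma on rlog values. Counts under this rule are thus not comparable with those of the study. It gave 3 loci lower and 0 higher, where all loci gave 0.464% lower and 0.994% higher. The 16 lower loci came from 13 of the 22 families, and those named below had log2 differences from -0.48 to -1.20.

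The count of 17 loci changed with the tree left out, as did the share of all loci, which was 9.81% with all trees. It was 4 without June replicate 1 (2.94% of all loci), 7 without June replicate 2 (4.23%) and 9 without April replicate 1 (4.02%). It was 11 without April replicate 3, April replicate 4 or June replicate 3 (4.42% to 5.93%), and 12 or 13 without July replicate 1, 2 or 3 (7.88% to 9.48%). It rose to 18 without April replicate 2 (21.4%) and 19 without July replicate 4 (12.3%). The median difference stayed between -0.54 and -0.33 over all 11 such fits. Without April replicate 2 and July replicate 4 the count was 24, when 26.3% of all loci passed the same threshold. Across all 23 alternatives, 4 of the 17 loci kept an adjusted p of at most 0.05 throughout, among them 1 RPS9 and 1 RPS16 locus, and the other 13 lost it in 1 or more, always without June replicate 1.

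Between July and June the direction was the opposite. The median log2 difference (July minus June) was 0.34, a July level 1.27 times that of June, with 53 of the 62 loci positive, and the median of all loci was -0.0002. The July trees lay above all June trees at 27 of the 62 loci and below them at 0, where all loci gave 5.11% above and 5.58% below. At an adjusted p of at most 0.05 in limma 1 of the 62 loci differed, where 0.00446% of all loci did. At an unadjusted p under 0.05, 27 of the 62 loci were higher and 0 were lower, against 4.47% higher and 4.46% lower of all loci. At 20 of the 62 loci the June trees lay below every April and every July tree, which held for 1.75% of all loci. The June/April and July/June comparisons share the June trees, so their values are not independent of each other.

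Between July and April the group differed little. The median log2 difference (July minus April) was -0.06, with 26 loci positive and 36 negative, and the median of all loci was -0.02. At an adjusted p of at most 0.05, 1 of the 62 loci was higher and 2 were lower, against 6.31% higher and 5.73% lower of all loci. The July trees lay above all April trees at 1 locus and below them at 7, where all loci gave 8.70% and 8.78%. The stricter rule called 1 locus, an RPS3 homolog that was higher in July, against 1.28% of all loci higher. At an adjusted p of at most 0.05, 3 of the 62 loci passed with all trees, as did 12% of all loci. The count was 7 without April replicate 2 (22.8% of all loci) and 5 without July replicate 4 (15%). It was 2 without April replicate 1, April replicate 4, July replicate 2 or July replicate 3 (5.81% to 7.42%). Without both April replicate 2 and July replicate 4 it was 13, 8 of them higher. The same fit called 28.2% of all loci, and the median difference of the 62 loci was 0.04.

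Other protein genes of the cytosolic ribosome showed June levels of the same kind. Among 26 tested homologs of the remaining 40S proteins the median June minus April difference was -0.59, with 9 lower and 0 higher in limma at an adjusted p of at most 0.05. Among 131 homologs of large subunit (60S) proteins it was -0.52, with 35 lower and 1 higher. At this threshold 4.23% of all loci were lower and 5.57% higher. The July minus June medians were 0.42 and 0.40. Ribosome biogenesis factors, which assemble and process the subunits, had a June minus April median of -0.27 over 30 loci. Of them, 6 were lower and 0 higher. Their July minus June median was 0.26, but July replicate 4 lay among the June trees. Its median deviation was -0.16, against -0.18 to -0.13 in June. Elongation factors, which move the ribosome along the message, had medians of -0.10 and 0.19 over 19 loci, and at an adjusted p of at most 0.05 0 loci changed between June and April in limma (3 at an unadjusted p under 0.05, which 28.3% of all loci passed). The 10 homologs of plastid 30S proteins, which serve the ribosome of another compartment, had medians of 0.09 and -0.04, with 0 changed at the adjusted threshold between June and April (2 at an unadjusted p under 0.05, against the same 28.3%). No difference between these groups and the 40S genes was tested.

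**Figure D1:**
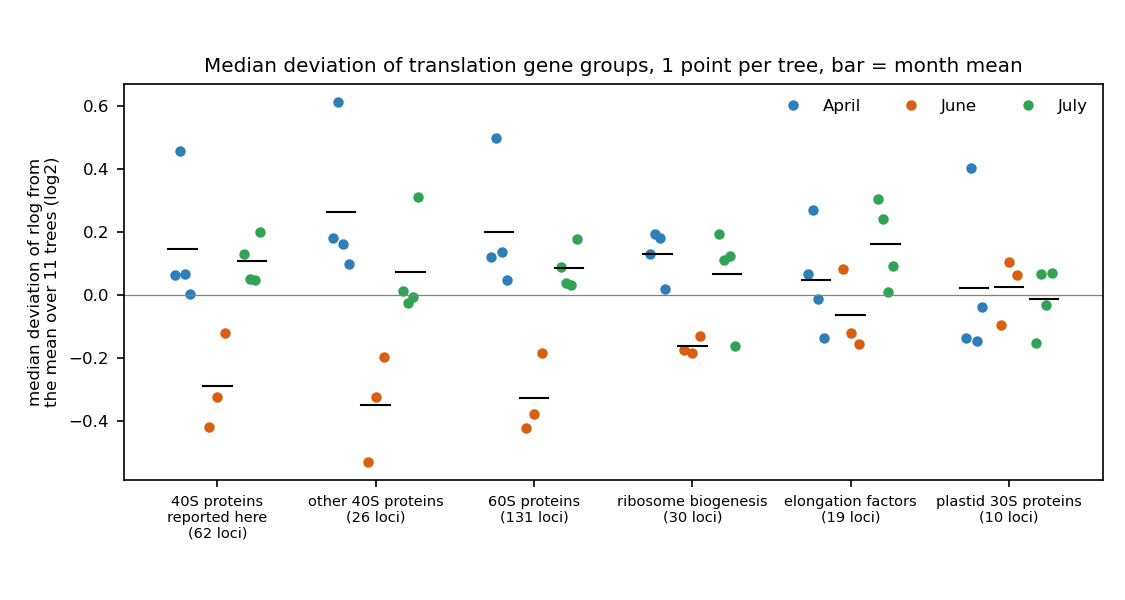
Median deviation of rlog from the mean over 11 trees, in log2 units, for 6 groups of translation genes. Each point is 1 tree coloured by month and each bar is the month's mean. The 3 June trees lie below all April and July trees for the 40S genes (-0.42 to -0.12) and both other cytosolic ribosomal protein groups. For ribosome biogenesis, July replicate 4 (-0.16) lies among the June trees, and the plastid 30S proteins overlap between months.

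The families were then read by their place in the subunit. The 24 tested loci of head proteins (such as RPS3, RPS10, RPS16 and RPS18) had a June minus April median of -0.43, 23 of them negative, with 5 lower and 1 higher at an adjusted p of at most 0.05. The 38 loci of body and platform proteins had a median of -0.45, 31 of them negative, with 11 lower and 0 higher. Of all loci, 4.23% were lower and 5.57% higher at this threshold. The June difference was thus found in both parts. From June to July all 24 head loci had a positive difference (median 0.38), as had 29 of the 38 body and platform loci (median 0.32). By family, the June minus April median was negative in 21 of 22 families, the exception being RPS4, a body protein, at 0.23 over 6 loci of which 4 varied strongly between trees within a month.

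**Figure D2:**
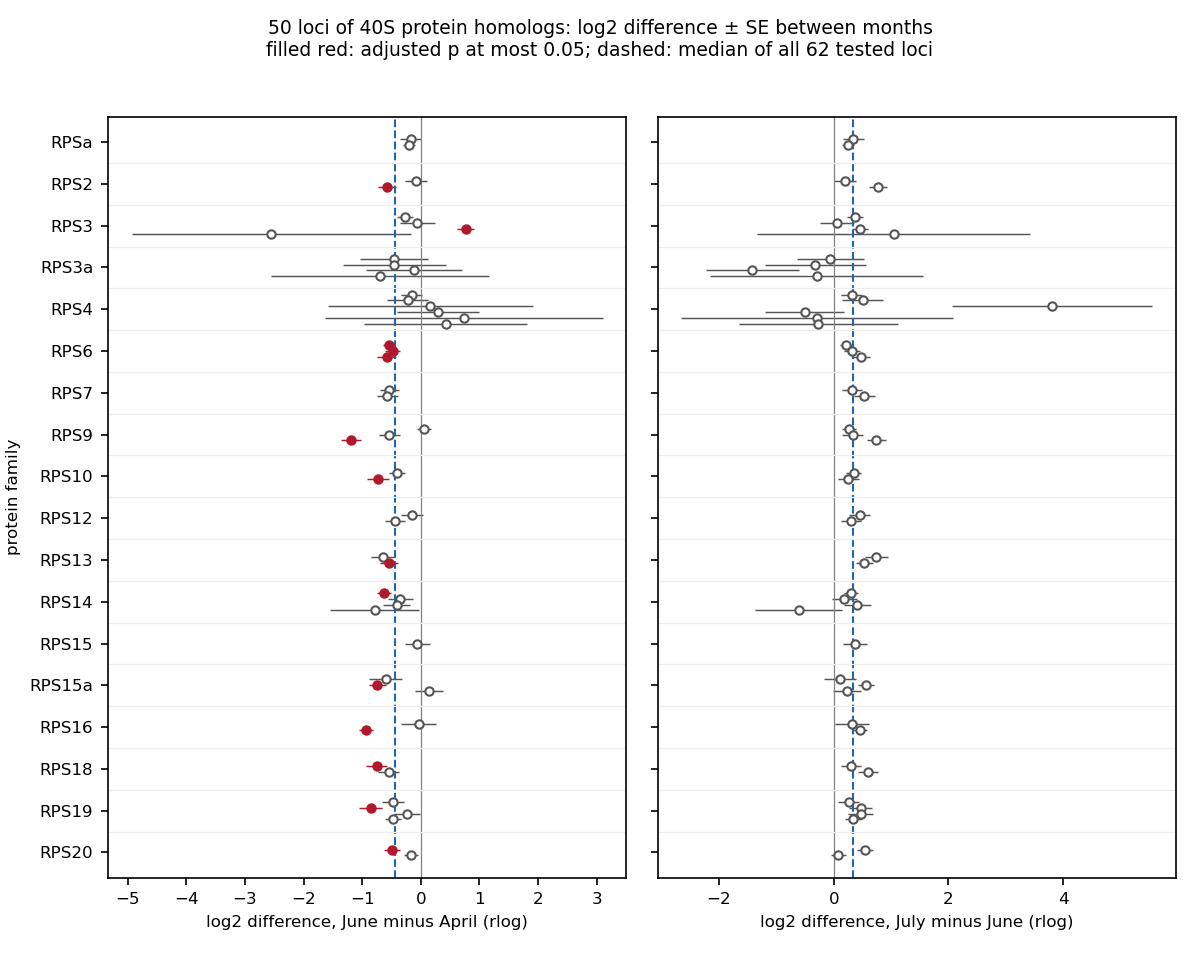
Log2 difference ± SE of 50 tested loci of 18 protein families, June minus April on the left and July minus June on the right, with loci at an adjusted p of at most 0.05 in filled red and the median of all 62 tested loci as a dashed line. Most points lie left of 0 in the first panel (43 of 50) and right of 0 in the second (42 of 50).

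RPS9, RPS2 and RPS3 line the channel through which the messenger RNA enters. Of the 3 RPS9 loci, all matched to AT5G39850, LOC112032065 was at 10.73, 11.22, 10.63 and 10.51 in the April trees, 9.44, 9.46 and 9.83 in the June trees and 10.24, 10.30, 10.29 and 10.47 in the July trees. The months did not overlap, with June lowest and April highest. It fell in June by 1.20 ± 0.17 on the log2 scale (SE; adjusted p = 0.00364). LOC111996865 had a June minus April difference of -0.54 (adjusted p = 0.0930), and its June values of 12.34 to 12.76 also lay below those of April and July. LOC111995144 did not share the June fall. Its mean rlog, a scale not corrected for length, was the highest of the 62 loci, and it was at 13.26 to 13.69 in April, 13.39 to 13.50 in June and 13.60 to 13.79 in July, and its difference was 0.05 ± 0.12 (adjusted p = 0.812). Near-identical copies can share reads, so the split of a family's signal between its loci is less certain than its sum.

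RPS2 had 1 locus of each kind. LOC112002959 was at 13.13 to 13.96 in April, 13.25 to 13.38 in June and 13.24 to 13.66 in July, with a June minus April difference of -0.09 (adjusted p = 0.802) and overlapping months. LOC112027942 was at 10.78 to 11.31 in April, 10.22 to 10.58 in June and 11.06 to 11.47 in July, and it fell in June by 0.58 (adjusted p = 0.0431).

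One RPS3 locus ran against the group. LOC111998885 was at 9.99, 10.26, 9.81 and 9.83 in the April trees, 10.75, 10.66 and 10.79 in the June trees and 11.44, 11.27, 10.95 and 11.11 in the July trees. The months did not overlap and each was above the one before. The June minus April difference was 0.76 ± 0.14 (SE; adjusted p = 0.0120), which became 0.0525 without June replicate 1. The July minus April difference was 1.22 ± 0.13 (adjusted p = 0.000869), a 2.33-fold higher level. Its adjusted p stayed at or under 0.00562 in every alternative tried, and these 2 comparisons share the April trees.

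The other RPS3 loci, matched to AT5G35530 as well, did not pass the test. LOC112023516 was at 13.05 to 13.65 in April, 12.88 to 13.09 in June and 13.26 to 13.42 in July, with a July minus April difference of 0.10 (adjusted p = 0.647). LOC112008532 overlapped between all months (11.32 to 12.49). The RPS3 family summed to 14389 to 20285 (April), 12945 to 15078 (June) and 16856 to 18480 (July). The June sums thus overlapped with April for the family as a whole. As shares of the summed level of all loci they did not, at 0.0439% to 0.0507% (April) and 0.0321% to 0.0387% (June).

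RPS16 and RPS18, head proteins whose tails reach toward the transfer RNA, each had a locus lower in June. The RPS16 locus LOC112039529 was at 10.81, 10.90, 10.85 and 10.90 in the April trees, 9.68, 10.00 and 10.11 in the June trees and 10.55, 10.33, 10.46 and 10.22 in the July trees. The months did not overlap. It fell by 0.93 ± 0.12 in June (SE; adjusted p = 0.00283), and its July minus April difference was -0.47 ± 0.12 (adjusted p = 0.0264), which reached 0.0739 without April replicate 4 and was also above 0.05 without April replicate 1, April replicate 3, July replicate 2 or July replicate 3. The other RPS16 locus, LOC111991747, overlapped between months with a June minus April difference of -0.04 (adjusted p = 0.947). The RPS18 locus LOC112017835 was at 12.58 to 12.78 in April, 11.68 to 12.01 in June and 11.81 to 12.63 in July, and it fell in June by 0.75 (adjusted p = 0.0290).

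RPS19, RPS10 and RPS20 are head proteins as well. The RPS19 locus LOC112039749 was at 11.60 to 12.34 in April, 10.76 to 11.46 in June and 11.41 to 11.54 in July. It fell in June by 0.86 ± 0.20 (SE; adjusted p = 0.0264), and the adjusted p was 0.107 without June replicate 1, 0.0963 without June replicate 2 and 0.0666 without April replicate 1. The RPS19 locus with the highest rlog, LOC112031076, had a difference of -0.47 (adjusted p = 0.133). Of 2 RPS10 loci, LOC112038311 fell in June by 0.72 (adjusted p = 0.0368), and LOC112002236 had a difference of -0.41 (adjusted p = 0.0776) with June below April and July in every tree. The RPS20 locus LOC112033410 was at 12.27 to 12.50, 11.66 to 12.17 and 12.29 to 12.62 in April, June and July, and fell in June by 0.49 (adjusted p = 0.0467).

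RPS6 is the body protein that S6 kinase phosphorylates downstream of the growth regulator TOR. Among the 21 families with 2 or more tested loci, it was the only one in which each locus fell in June at an adjusted p of at most 0.05. This rests on the threshold and not on the size of the fall. The June minus April median of RPS6 was -0.54. Families with a lower median included RPS7 (-0.55), RPS10 (-0.57), RPS13 (-0.60), RPS15a (-0.60) and RPS18 (-0.65). Every tested locus of RPS7, RPS10, RPS13 and RPS18 had a negative difference as well. Of the 3 tested RPS15a loci, 1 had a positive difference. The RPS6 locus LOC112039502 was at 11.76 to 11.96 in April, 11.31 to 11.38 in June and 11.36 to 11.74 in July. It fell in June by 0.54 (adjusted p = 0.0134). LOC112026338 fell by 0.48 (adjusted p = 0.0479) and LOC112026337 by 0.58 (adjusted p = 0.0485), and all 3 loci had June trees below April trees without overlap. Of 23 alternatives LOC112039502 passed in 22, the exception being without June replicate 1 (adjusted p = 0.0632), LOC112026338 in 7 and LOC112026337 in 8, with adjusted p-values of up to 0.169 and 0.170. The last 2 have consecutive locus numbers, and all 3 matched the same Arabidopsis gene, AT5G10360. The July trees overlapped with April at LOC112026338 and LOC112026337 and lay below April at LOC112039502, where the July minus April difference of -0.32 did not pass the test (adjusted p = 0.0553).

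The TOR pathway itself was measured through 9 tested loci. Their median June minus April difference was -0.10, with 6 loci negative and 3 positive. At an adjusted p of at most 0.05 in limma 2 were lower and 0 higher, against 4.23% and 5.57% of all loci. The July minus April median was 0.06, with 5 loci positive and 4 negative. At the same threshold 3 were lower and 0 higher, against 5.73% and 6.31% of all loci. The loci named next are among those that were lower. The S6 kinase homolog LOC112034741 was at 9.58, 8.31, 9.23 and 9.58 in the April trees, 8.06, 7.89 and 7.60 in the June trees and 7.75, 7.45, 8.28 and 8.05 in the July trees. All June and July trees were below all April trees. It fell by 1.32 ± 0.32 in June (SE; adjusted p = 0.0286) and differed from April by -1.29 ± 0.29 in July (adjusted p = 0.0202). The second S6 kinase homolog, LOC112014165, had a June minus April difference of -0.57 (adjusted p = 0.0744) and was lower in July by -0.66 (adjusted p = 0.0319). TAP46 (LOC112034617), a phosphatase regulator that TOR acts on, fell by 0.54 in June (adjusted p = 0.0367). The July minus June differences of these 3 loci were 0.03, -0.09 and -0.08 (adjusted p of 0.988, 0.942 and 0.921). The differences of these 3 loci were not checked in the alternatives, such as with a tree left out.

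The remaining body and platform families held further loci that were lower in June. RPS14, on the platform, had LOC111998092 at 12.13 to 12.61 in April, 11.61 to 11.87 in June and 11.92 to 12.11 in July, and it fell in June by 0.63 (adjusted p = 0.0145). RPS13, which bridges to the large subunit, had LOC111997675 at 11.78 to 12.15 in April and 11.24 to 11.45 in June, with a fall of 0.54 (adjusted p = 0.0466), while LOC112033409 had a difference of -0.65 (adjusted p = 0.0653). Of the RPS15a loci LOC111988698 fell by 0.74 (adjusted p = 0.0113). RPS7, at LOC111999542, had a difference of -0.54 (adjusted p = 0.0698), with June trees at 12.89 to 13.31 below the April trees at 13.40 to 13.98. RPSa, the homolog of animal ribosomal protein SA, had LOC112004844 at a difference of -0.17 (adjusted p = 0.566) and June within the range of April.

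The loci with the highest rlog of each family were taken as a second view of the group. Of these 22 loci, 21 had a negative June minus April difference, with a median of -0.35 and a range of -0.75 to 0.05. At 10 of them all June trees lay below all April trees, which held for 13.0% of all loci. At an adjusted p of at most 0.05, 4 were lower, against 4.23% of all loci. From June to July 21 of the 22 had a positive difference. The head proteins RPS12 (LOC112009898, -0.15) and RPS15 (LOC112027473, -0.06) were among those with small June differences, and the months of April and June overlapped at each. RPS4 (LOC111984101, -0.16) and RPS15a (LOC111991195, -0.60) overlapped as well, the latter with April trees spread from 12.34 to 13.54.

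Loci that depart from the group were sought by subtracting the 40S median deviation of each tree from its values and testing what remained. Between June and April 8 of the 62 loci departed at an adjusted p of at most 0.05, 3 upward and 5 downward, where 25.0% of all 22426 loci departed upward and 0.950% downward from the 40S median. The upward loci were LOC111998885 (RPS3), by 1.20 ± 0.14 (SE; adjusted p = 0.000597), LOC112032273 (RPS15a), by 0.58 ± 0.19 (adjusted p = 0.0441), and LOC111995144 (RPS9), by 0.49 ± 0.10 (adjusted p = 0.00619). The downward loci included the RPS9, RPS16 and RPS19 loci LOC112032065, LOC112039529 and LOC112039749, by -0.76, -0.50 and -0.42. Thus 2 of the 3 RPS9 loci departed, in opposite directions, and the third, LOC111996865, followed the median (-0.10, adjusted p = 0.558).

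The number of departures was 5 without April replicate 1, April replicate 4 or June replicate 2 (4299, 5208 and 3415 of all loci). It was 4 without June replicate 1 (2845 of all loci). Without April replicate 2 and July replicate 4 it was 12 (7278 of all loci, against 5810 with all trees). The RPS15a locus LOC112032273 had rlog values of 10.96 to 11.72 in April, 11.26 to 11.35 in June and 11.16 to 12.15 in July, so that its own levels overlapped between months and only its place relative to the other 40S loci differed.

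Between July and April 4 loci departed, 2 in each direction, against 4.98% upward and 2.25% downward of all loci. The RPS3 locus LOC111998885 (1.26 ± 0.13, SE; adjusted p = 0.000802) and the RPS9 locus LOC111995144 (0.36 ± 0.09, adjusted p = 0.0402) were above the median, and the RPS9 locus LOC112032065 (-0.41, adjusted p = 0.0451) was among those below it. This count was 1 without April replicate 1 or 4 or July replicate 1, 2 or 3 (751 to 927 of all loci). It was 2 without April replicate 3 (997) or June replicate 2 (1246). It was 7 without April replicate 2 (4195) and 13 without April replicate 2 and July replicate 4 (5229). With all trees 1621 of all loci departed, so the number over all loci moved the same way in these fits. Between July and June 1 locus departed, against 1.65% of all loci (369). The count was 0 without June replicate 1, July replicate 2 or July replicate 3 (1 of all loci in each). It was 2 without April replicate 2 (3306 of all loci) and 3 without April replicate 2 and July replicate 4 (2902).

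**Figure D3:**
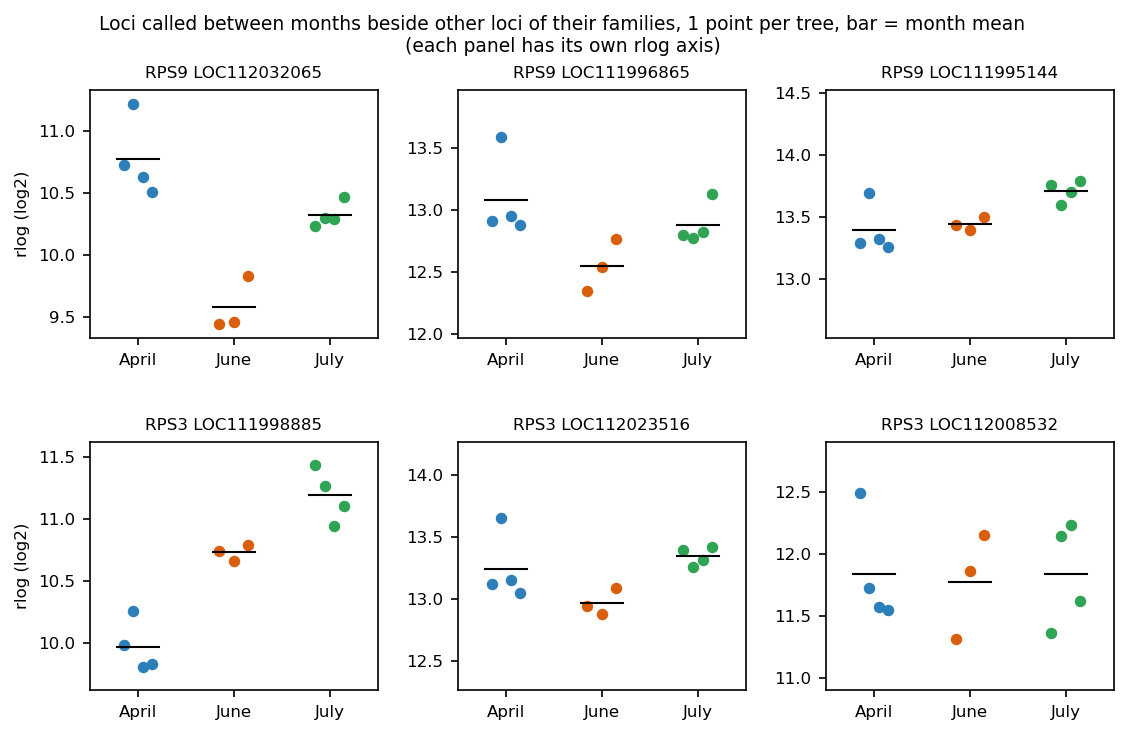
rlog of the 3 RPS9 loci and of 3 RPS3 loci, 1 point per tree and a bar at each month's mean, with a separate rlog axis in each panel. The RPS9 locus LOC112032065 has its June trees at 9.44 to 9.83, below all others, and the RPS3 locus LOC111998885 has its 4 April trees below all others.

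Some loci differed between trees of the same month far more than between months. The rlog of 10 of the 62 loci spanned more than 3 units within at least 1 month, a limit set after the values were seen, while the median of the widest span was 0.728 over the 62 loci. They included loci of RPS3, RPS3a, RPS4 and RPS14. Without them the median June minus April difference of the other 52 loci was -0.44, with 48 negative, and the median July minus June difference was 0.35, with 50 positive.

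Several of these loci had 2 separate levels. The RPS4 locus LOC111994394 was at 10.30 in April replicate 3, 10.18 in June replicate 2 and 10.69 in July replicate 3, and at 3.03 to 4.05 in the other 8 trees. The RPS3 locus LOC112038648, a miscellaneous RNA rather than a protein-coding gene in the RefSeq table, was at 4.20 in April replicate 1, 5.25 and 4.47 in June replicates 2 and 3, and 4.68 in July replicates 2 and 3. In the other 6 trees it was at 10.79 to 11.45. The RPS4 locus LOC112030835, with the lowest mean rlog of the 62, was at 6.30, 6.35 and 6.79 in April replicate 3, June replicate 3 and July replicate 1 and at 2.29 to 2.73 elsewhere. At each of these 3 loci both levels occurred in every month.

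The RPS4 locus LOC112026667 was at 4.97, 5.37, 11.70 and 4.66 in the April trees, 4.70, 5.34 and 10.48 in the June trees and 10.83, 10.60, 10.73 and 10.45 in the July trees. All 4 July trees were at the high level, with 1 April and 1 June tree, and the July minus April difference of 3.98 did not pass the test (adjusted p = 0.131). Without April replicate 3 alone it was 5.65 (adjusted p = 0.0195). That fit leaves out the only April tree at the high level, so it cannot serve as a check of the difference. Of 23 alternatives it was the only 1 to pass, and the adjusted p reached 0.280. The RPS3a locus LOC112024751 was at 4.12 in April replicate 3, 4.16 in June replicate 1, and 4.01 and 4.33 in July replicates 2 and 4, and at 8.56 to 10.07 in the other 7.

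Single low trees made up the rest. The RPS3a locus LOC112005258 was at 5.07 in July replicate 1 and 8.19 to 9.47 elsewhere, and the RPS3a locus with the highest rlog, LOC112024756, was also lowest there, at 8.64 against 10.45 to 11.64. The RPS3a family sum on the linear scale was 1734 in July replicate 1 and 2365 to 4276 in the other trees. The RPS3a locus LOC111998452 was low in July replicate 2 (4.58), the RPS14 locus LOC112027012 in July replicate 4 (5.24) and the RPS4 locus LOC111994763 in April replicate 3 (4.49). The RPS4 family sum was 9575 to 15269 in April, 8304 to 12057 in June and 12952 to 15340 in July.

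**Figure D4:**
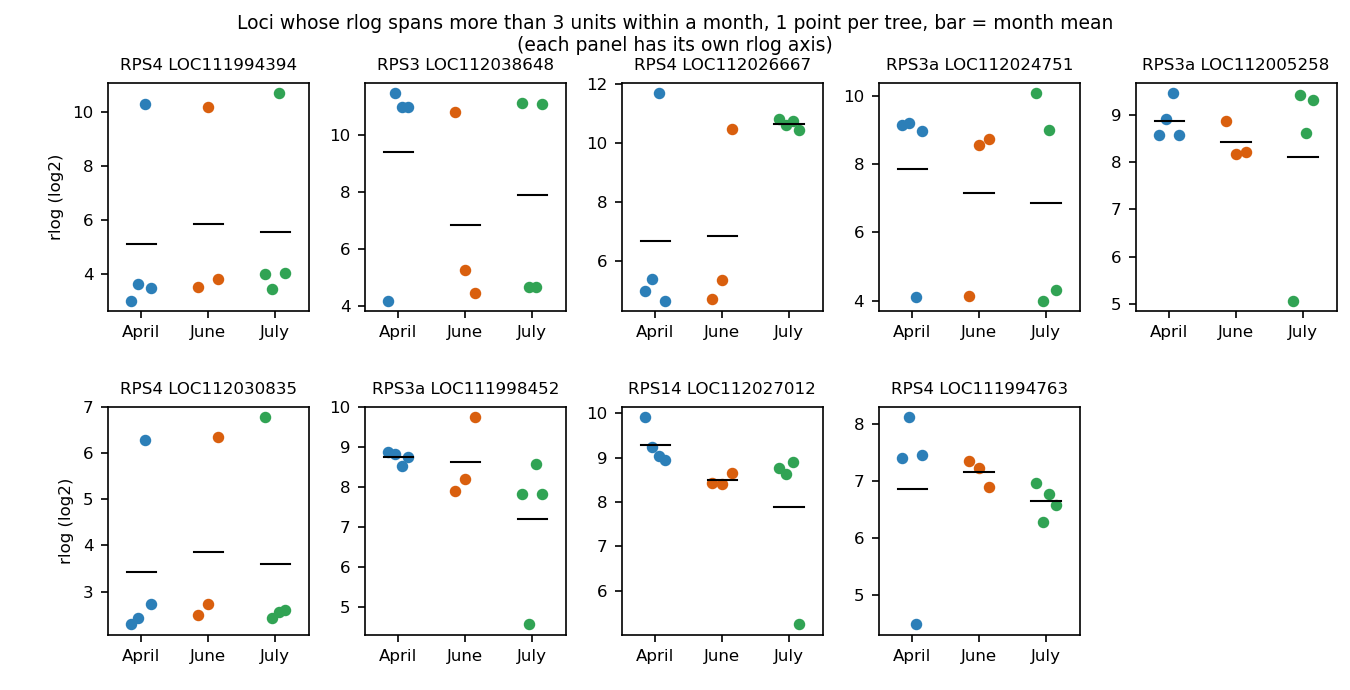
rlog of 9 of the loci whose values span more than 3 units within a month, 1 point per tree and a bar at each month's mean, with a separate rlog axis in each panel. Several loci sit at 2 levels in each month, such as LOC111994394 at 3.03 to 4.05 or 10.18 to 10.69, and LOC112026667 is high in all 4 July trees.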

How the data were processed

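RNA of innercork from 11 trees was sequenced as poly(A) libraries. The authors checked reads with FastQC 0.11.5, aligned them with STAR 2.5.3a to the cork oak genome, assigned to each locus its most similar Arabidopsis protein by BLASTP, and deposited log2 values from the regularized log transformation of DESeq2, which corrects for library size and shrinks differences of low loci. Counts and depths were not used here, so the precision rests on the spread between trees. From these values limma 3.58.1 (R 4.3.3) was fitted with month as the factor over all 11 trees and a trended prior, for the 22426 loci with a mean of at least log2(10), and p-values were adjusted by Benjamini-Hochberg over all of them. The departure test was the same fit after each tree's 40S median deviation was subtracted. The script was tested on simulated data.

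Named loci were those called in any comparison and the others of their families, the 5 largest rises and falls at an adjusted p of at most 0.05, the departing loci (at most 5 in each direction), the locus with the highest rlog of each family and the locus with the lowest of all. Single loci of 4 of the 22 families count in the group values but are not reported here. Other loci named, including those that vary between trees, were chosen after their values were seen. The members, gene lists and tests were chosen with earlier results of these data known. Alternatives covered the minimum, scaling, the prior, weights, a replicate block and leaving out each tree. Gene types came from RefSeq names of the assembly Cork oak 2.0, where 54 of the 62 tested loci matched.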

Additional observations from a re-analysis of the deposited data

Results flagged for a closer look

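In April and July, the months with 4 trees, 13 of the 56 sets of values tested held 1 tree whose gap to its nearest neighbour exceeded Dixon's 95% limit. Chance flags about 1 in 20 such sets, and loci of 1 tree are not independent of each other. April replicate 2 was the tree in 9 of them and was high each time. Its median deviation of the 62 40S loci was 0.458, where the next April tree was at 0.0662. This tree was also high for the 60S proteins (0.497, next April tree 0.135) and the suberin loci (0.369, next -0.385). For the TOR pathway loci it was the lowest April tree (-0.0070). The high loci were LOC111995144 of RPS9 at an rlog of 13.69 (next tree 13.32), LOC111996865 of RPS9 at 13.59 (12.95), LOC111999542 of RPS7 at 13.98 (13.48), LOC112002236 of RPS10 at 13.19 (12.75), LOC112017835 of RPS18 at 12.78 (12.61), LOC112023516 of RPS3 at 13.65 (13.15), LOC112027473 of RPS15 at 13.64 (12.94) and LOC112032273 of RPS15a at 11.72 (11.07). Of the 62 tested loci, 48 had their highest April value in this tree and 0 their lowest.

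Elsewhere, LOC111996865 of RPS9 was high in July replicate 4 at 13.13 (12.82 in the next tree). LOC112030835 of RPS4 was high at 6.30 in April replicate 3 and at 6.79 in July replicate 1, against 2.73 and 2.59 in the next trees. LOC112038648 of RPS3 was low in April replicate 1 at 4.20, against 10.95.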

How the results depend on the processing

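The rlog values carry no depth, so what the depth limits could not be assessed, and how reads shared by near-identical loci were counted is not given in the sources used here. The cause of each change below was not tested. The sign of the June minus April and July minus June medians held in every alternative tried. The July minus April median, near 0, was positive (0.04) without both April replicate 2 and July replicate 4, a setting chosen after seeing the data. Leaving out 1 tree at a time, that setting aside, gave 1 to 3 June/April loci under the stricter rule (24 to 934 of all). At an adjusted p of at most 0.05 the count was 4 to 19 (2.94% to 21.4% of all loci). Departures were 4 to 10 (2845 to 6501 of all 22426 loci). The July/April counts were then 2 to 7 at an adjusted p of at most 0.05 (5.81% to 22.8% of all loci). Departures were 1 to 7 there (751 to 4195 of all loci). The July/June counts were 0 to 1 under the stricter rule and 0 to 2 departures (1 to 3306 of all loci). Without both trees the June/April counts were 3, 24 and 12, and the July/April counts 13 and 13. The July/June counts were 0, 0 at an adjusted p of at most 0.05, and 3. Over all loci these were 1188, 5902 and 7278, then 6325 and 5229, then 1, 1 and 2902. Between June and April, the count at an adjusted p of at most 0.05 (17) was 11 with no minimum (5.24% of all loci). It was also 11 with each tree centred on its median (9.56%) and 29 after quantile normalization (9.65%). With no minimum, which adds the 22 low members, the median difference was -0.21. The 8 departures were 5 with an untrended prior (5651 of all loci) and 16 with array weights (9476). Between July and April, the 3 loci became 7 after quantile normalization (13.7% of all loci) and 10 with array weights (30.2%). The 4 departures became 2 with an untrended prior (1443 of all loci) and 17 with array weights (6543). With only the 2 months fitted there was 1 (1156). Between July and June, the 1 locus became 0 under the stricter rule with array weights or only the 2 months fitted. At an adjusted p of at most 0.05 it became 0 in the latter. Departures were 7 with array weights (6530 of all loci) and 0 with only the 2 months fitted (1).

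With the replicate number as a block the counts were 1, 8 and 5 between June and April (55, 1324 and 4262 of all loci). There was then 1 departure between July and April (1067 of all loci), and 0, 0 and 0 between July and June. With the numbers of the column codes the counts were 1, 13 and 5 (81, 2192 and 4457), then 1 (1206), then 0, 0 and 0. The numbers do not pair the trees: same-numbered trees had correlations of -0.0772 to 0.211 and others -0.122 to 0.138.

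Of the 32 differences of single loci given above, 26 kept their sign in all alternatives, and the 6 others had an adjusted p above 0.05 before and after. The June minus April difference of LOC112002959 became 0.0784 (array weights) and 0.01003 (block by column codes), and was -0.176 to 0.100 with 1 tree left out. That of LOC111991747 became 0.0251 (centred), 0.135 (array weights) and 0.113 (block by column codes), and was -0.225 to 0.238 with 1 tree left out. That of LOC112027473 became 0.00629 (centred), 0.105 (array weights) and 0.0325 (block by column codes), and was -0.144 to 0.130 with 1 tree left out. That of LOC111984101 was -0.273 to 0.0333 with 1 tree left out. That of LOC111995144 became -0.184 after quantile normalization, and the July minus April difference of LOC112023516 became -0.0397.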
